A study of Mus musculus with 6 samples.

Results

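The cytochrome P450 genes of families 1 to 4 were followed in mouse liver after withdrawal of the drug NTBC. Members were all genes whose only symbol in the array annotation is Cyp, a family digit from 1 to 4, a subfamily letter and a number, and each gene was read at its brightest probe set by mean log2 intensity on the 6 arrays. This gave 56 genes of 18193 measured, chosen from 69 probe sets. A further 4 probe sets that the annotation assigns to several P450 genes at once were left out, so that Cyp2a4, Cyp2a5, Cyp4a10 and some others have no value of their own here. The RefSeq mouse annotation lists 113 genes of such names, 79 of them protein coding, and the 56 genes are therefore a part of these families.

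Cytochromes P450 are heme enzymes of the endoplasmic reticulum that insert an oxygen atom into their substrates, with electrons delivered by P450 oxidoreductase and, for some of them, cytochrome b5. Families 1 to 3 are best known for the oxidation of drugs, pollutants and steroids, whereas family 4 mainly hydroxylates the far end of fatty acids, and members of subfamilies 2c and 2j turn arachidonic acid into epoxides. In the liver they are made mostly by hepatocytes, many of them near the central vein, and nuclear receptors and other ligand-activated factors set their levels. Among these are the aryl hydrocarbon receptor (AhR), the xenobiotic receptors CAR and PXR, and the fatty acid receptor PPAR alpha.

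Affymetrix expression arrays were run on whole liver of 6 male FRG mice of C57Bl/6J background at 12 weeks of age, with a separate array for each mouse. All 6 mice lack Fah, which completes the breakdown of tyrosine, and also Rag2 and Il2rg, whose loss removes T, B and NK cells, and all were fed chow low in tyrosine and phenylalanine. The 3 FRG-7dNTBC mice had been without NTBC for 7 days from the age of 11 weeks, and the 3 FRG+NTBC mice kept receiving 16 mg/L of it in sweetened drinking water. NTBC (nitisinone) blocks an enzyme upstream of Fah, so that toxic tyrosine products form in Fah-deficient liver once it is stopped. No wild type liver was measured, and both groups carry the same deletions.

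Values are intensities on a linear scale, and differences are log2 FRG-7dNTBC minus log2 FRG+NTBC from a limma fit over all 45037 probe sets, with p-values adjusted over all of these. A gene was called up or down regulated at an adjusted p under 0.05. Median intensity was 33.1 to 34.3 on the FRG-7dNTBC arrays and 35.3 to 36.5 on the FRG+NTBC arrays. Of 9 hepatocyte markers, the amino acid enzyme Tat was down regulated and the other 8 were not called, with summed intensities of 136406 to 141371 in FRG-7dNTBC livers and 144950 to 150919 in FRG+NTBC livers. Markers of other cells moved as well, while 17.4% of all genes were up regulated and 12.7% down regulated. Of 7 macrophage markers 4 were higher, with summed intensities of 1894 to 4590 in FRG-7dNTBC livers and 1582 to 2184 in FRG+NTBC livers, and of 6 endothelial markers 2 were higher, with 1778 to 2191 in FRG-7dNTBC livers and 1119 to 1670 in FRG+NTBC livers. The part of these cells in the P450 values was not tested. In whole tissue, fewer cells of a type and less RNA per cell cannot be told apart. Rag2, which is deleted in every mouse, read 20.97, 21.4 and 18.00 in FRG-7dNTBC livers and 22.5, 21.4 and 16.4 in FRG+NTBC livers, so that P450 intensities near or below its highest value of 22.5 lie at the bottom of the scale.

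The P450 genes of a subfamily are related in sequence, and the bases before their start sites were compared for some of them. RefSeq windows (GRCm38.p6) were available for 43 of the 56 genes, and the 250 bases before the start are shown here for 5 genes on which the results turn. The Cyp2b9 and Cyp2b13 windows were the same at 248 of 250 bases (99.2%), although only the Cyp2b9 probe set rose, and the capitals mark the bases that differ. These are T48C and C104T, with the Cyp2b9 base first and positions counted from 1 at the 5′ end of the window. Cyp2c37 and Cyp2c50, which were both strongly down regulated, agreed at 215 of 250 bases (86.0%) when aligned, and the capitals mark their longest shared run of 44 bases. In the Cyp1a1 window, the gene with the largest rise, the capitals mark GCGTG, the core at which AhR binds, 54 bases before the start and TATAAA 30 bases before it. The Cyp2b9 region is chr7:26173159-26173408, Cyp2b13 is chr7:26061245-26061494, Cyp2c37 is chr19:39992174-39992423, Cyp2c50 is chr19:40089429-40089678 and Cyp1a1 is chr9:57697363-57697612, each on the plus strand and written 5′ to 3′.
Cyp2b9: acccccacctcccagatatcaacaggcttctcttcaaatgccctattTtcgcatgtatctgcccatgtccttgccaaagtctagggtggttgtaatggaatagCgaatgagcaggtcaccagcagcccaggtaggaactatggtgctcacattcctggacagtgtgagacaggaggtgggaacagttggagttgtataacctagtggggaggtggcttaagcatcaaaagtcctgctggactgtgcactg
Cyp2b13: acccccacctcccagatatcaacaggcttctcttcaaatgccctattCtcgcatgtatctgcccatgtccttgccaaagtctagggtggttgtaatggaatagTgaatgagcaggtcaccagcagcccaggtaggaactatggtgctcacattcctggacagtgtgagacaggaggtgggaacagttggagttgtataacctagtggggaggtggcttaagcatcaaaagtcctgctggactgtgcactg
Cyp2c37: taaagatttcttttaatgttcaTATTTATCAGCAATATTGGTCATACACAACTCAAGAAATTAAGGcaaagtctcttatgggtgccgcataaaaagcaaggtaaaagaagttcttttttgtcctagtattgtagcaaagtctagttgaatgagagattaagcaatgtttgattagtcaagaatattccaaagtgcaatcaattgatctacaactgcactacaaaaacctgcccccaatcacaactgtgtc
Cyp2c50: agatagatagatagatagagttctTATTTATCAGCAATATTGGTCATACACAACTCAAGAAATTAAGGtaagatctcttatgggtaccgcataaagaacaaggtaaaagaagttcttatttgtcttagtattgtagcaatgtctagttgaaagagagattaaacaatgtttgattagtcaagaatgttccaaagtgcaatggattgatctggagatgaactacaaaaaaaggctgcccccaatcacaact
Cyp1a1: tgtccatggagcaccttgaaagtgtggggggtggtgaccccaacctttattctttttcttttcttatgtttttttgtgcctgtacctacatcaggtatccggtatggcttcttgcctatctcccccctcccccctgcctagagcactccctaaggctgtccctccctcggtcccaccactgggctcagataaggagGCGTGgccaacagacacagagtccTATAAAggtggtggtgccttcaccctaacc

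Each sequence motif was searched on both strands of all 49 windows of the 43 genes, some genes having several starts, and of all 32851 mouse windows. TATAAA was found in 17 member windows (34.7%) and in 12.4% of all windows. TTGCNNAA, letters bound by C/EBP factors, was found in 12 member windows (24.5%), against 9.56% of all windows. CAAAGTCCA, letters bound by HNF4A, was found in 5 member windows (10.2%) and in 0.384% of all. GCGTG was in 11 member windows (22.4%), against 28.2% of all, and TTCNNNGAA, letters bound by STAT5, was in 3 (6.12%), against 7.02% of all. TTATGTAA, the D-box bound by Dbp, Hlf and Tef, was in 0 of the 49 member windows and in 0.819% of all. TATAAA stood before 3 of 10 up regulated and 7 of 14 down regulated genes with a window, and before 7 of 19 genes that were not called. In the same order of up regulated, down regulated and not called genes, GCGTG stood before 4, 3 and 3 genes, TTGCNNAA before 2, 3 and 3, CAAAGTCCA before 1, 1 and 3, and TTCNNNGAA before 0, 1 and 2. Several starts of a gene and alike windows of relatives, such as Cyp2b9 and Cyp2b13, were each counted, so the member windows are not independent. These matches describe the letters in the windows only.

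The P450 genes of families 1 to 4 changed in both directions after 7 days without NTBC, and more of them fell than rose. Of the 56 genes, 18 were down regulated (32.1%, against 12.7% of all genes) and 11 were up regulated (19.6%, against 17.4% of all genes), and 27 were not called. At least 2-fold falls were seen for 14 genes (25.0%, against 4.95% of all genes), and at least 2-fold rises for 5 (8.93%, against 8.94%). Falls of at least 5-fold were seen for 7 genes (12.5%, against 0.786% of all genes), and rises of that size for 3 (5.36%, against 0.989%). The median log2 difference was -0.13 over the 56 genes and -0.05 over all 18193 genes. In 20 genes all FRG-7dNTBC values lay below all FRG+NTBC values (35.7%, against 23.4% of all genes), and in 15 all lay above (26.8%, against 22.8%). By family, 5 genes rose and 14 fell of 35 in family 2, 3 rose and 4 fell of 13 in family 4, 2 rose and none fell of 5 in family 3, and 1 rose and none fell of 3 in family 1.

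**Figure D1:**
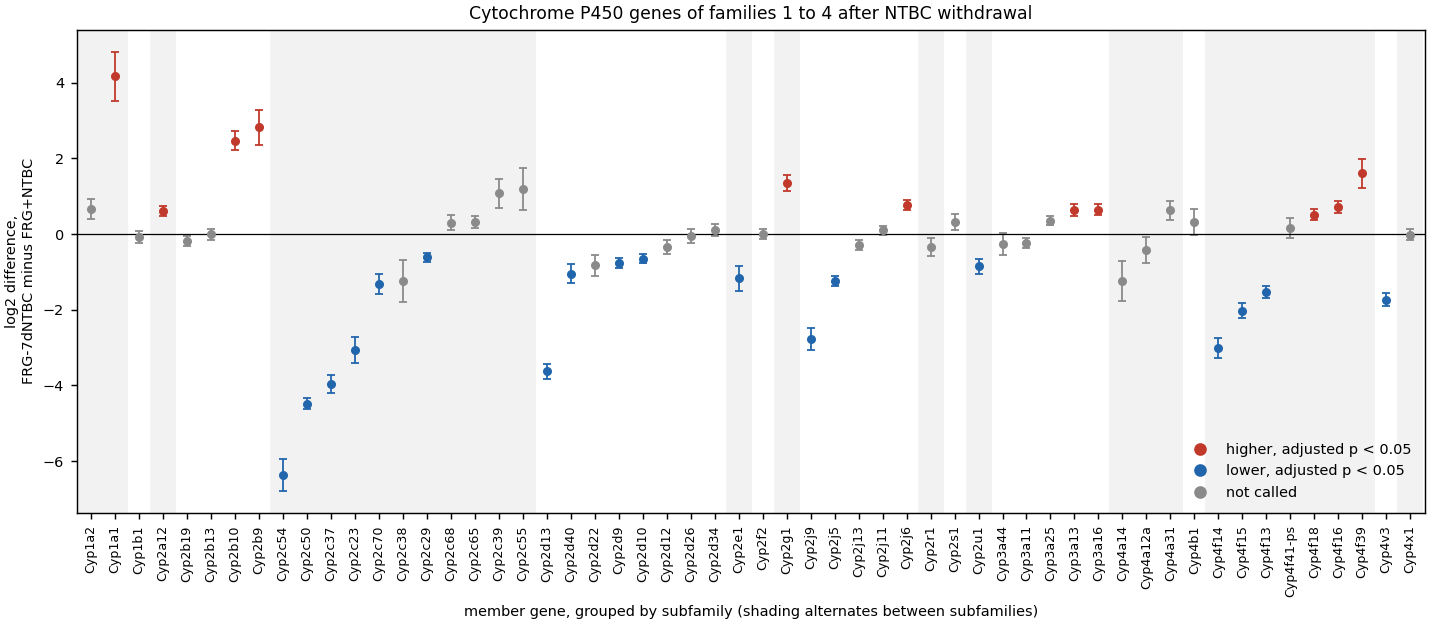
The log2 difference of each of the 56 P450 genes (FRG-7dNTBC minus FRG+NTBC, points, with bars of 1 SE from limma), grouped by subfamily on alternating shading. The down regulated genes reach -6.37 (Cyp2c54) and lie mainly in subfamilies 2c, 2d and 4f, and the up regulated genes reach 4.17 (Cyp1a1).

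Subfamily 2c, whose members oxidise drugs and arachidonic acid, had 6 of 11 genes down regulated and none up regulated (all genes: 12.7% and 17.4%). Its median log2 difference was -1.24. Cyp2c54, an arachidonic acid oxidising enzyme, had intensities of 54.6, 93.7 and 35.3 in FRG-7dNTBC livers, against 7913, 4012 and 3214 in FRG+NTBC livers. The groups lay far apart, and the difference of -6.37 (SE 0.41, adjusted p = 6.58e-05 from limma) is an 82.7-fold fall. Cyp2c50, its close relative, read 195, 181 and 232 in FRG-7dNTBC livers and 5149, 3956 and 4482 in FRG+NTBC livers, a difference of -4.48 (SE 0.15, adjusted p = 7.69e-06 from limma). The fall was 22.3-fold. The study lists this probe set under Cyp2c54 too, and it may therefore hold signal of both genes. Cyp2c37, which makes hydroxylated arachidonic acid, read 172, 129 and 123 in FRG-7dNTBC livers, against 3148, 1846 and 1820.3 in FRG+NTBC livers. In all 3 genes the highest FRG-7dNTBC value stayed more than 5-fold under the lowest FRG+NTBC value, and the difference of Cyp2c37 was -3.97 (SE 0.24, adjusted p = 5.08e-05 from limma). Close relatives can share probes on a 3′ array, and values of this subfamily are not fully separate measurements.

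Outside this trio, Cyp2c23, an arachidonic acid epoxygenase also called Cyp2c44, fell to 653, 282 and 798 in FRG-7dNTBC livers, against 4905, 4039.6 and 4269.9 in FRG+NTBC livers. Its difference was -3.06 (SE 0.35, 8.32-fold, adjusted p = 0.00059 from limma), and replicate 2 was the lowest of the FRG-7dNTBC mice. Cyp2c70 makes the muricholic acids, the bile acids particular to rodents. It read 3019, 1898 and 2353 in FRG-7dNTBC livers and 4153, 6165 and 8249 in FRG+NTBC livers, with groups that did not overlap and a 2.50-fold fall (SE 0.27 on the log2 scale, adjusted p = 0.00792 from limma). Without moderation of the variances the Cyp2c70 call was lost (adjusted p = 0.0844). Cyp2c29, a CAR-responsive epoxygenase, fell less, to 4640.3, 4905 and 5442 in FRG-7dNTBC livers, against 7332, 7591 and 8023 in FRG+NTBC livers. That is a difference of -0.62 (SE 0.12, adjusted p = 0.0072 from limma). The 5 other genes were not called. Cyp2c68 read 1795 to 2740.1 in FRG-7dNTBC livers and 1641 to 2179.8 in FRG+NTBC livers (difference 0.30, SE 0.20), and Cyp2c65, an intestinal member, lay below the Rag2 level in either group. The remaining 3, Cyp2c38, Cyp2c39 and Cyp2c55, differed widely among the FRG-7dNTBC mice and are described with that spread.

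**Figure D2:**
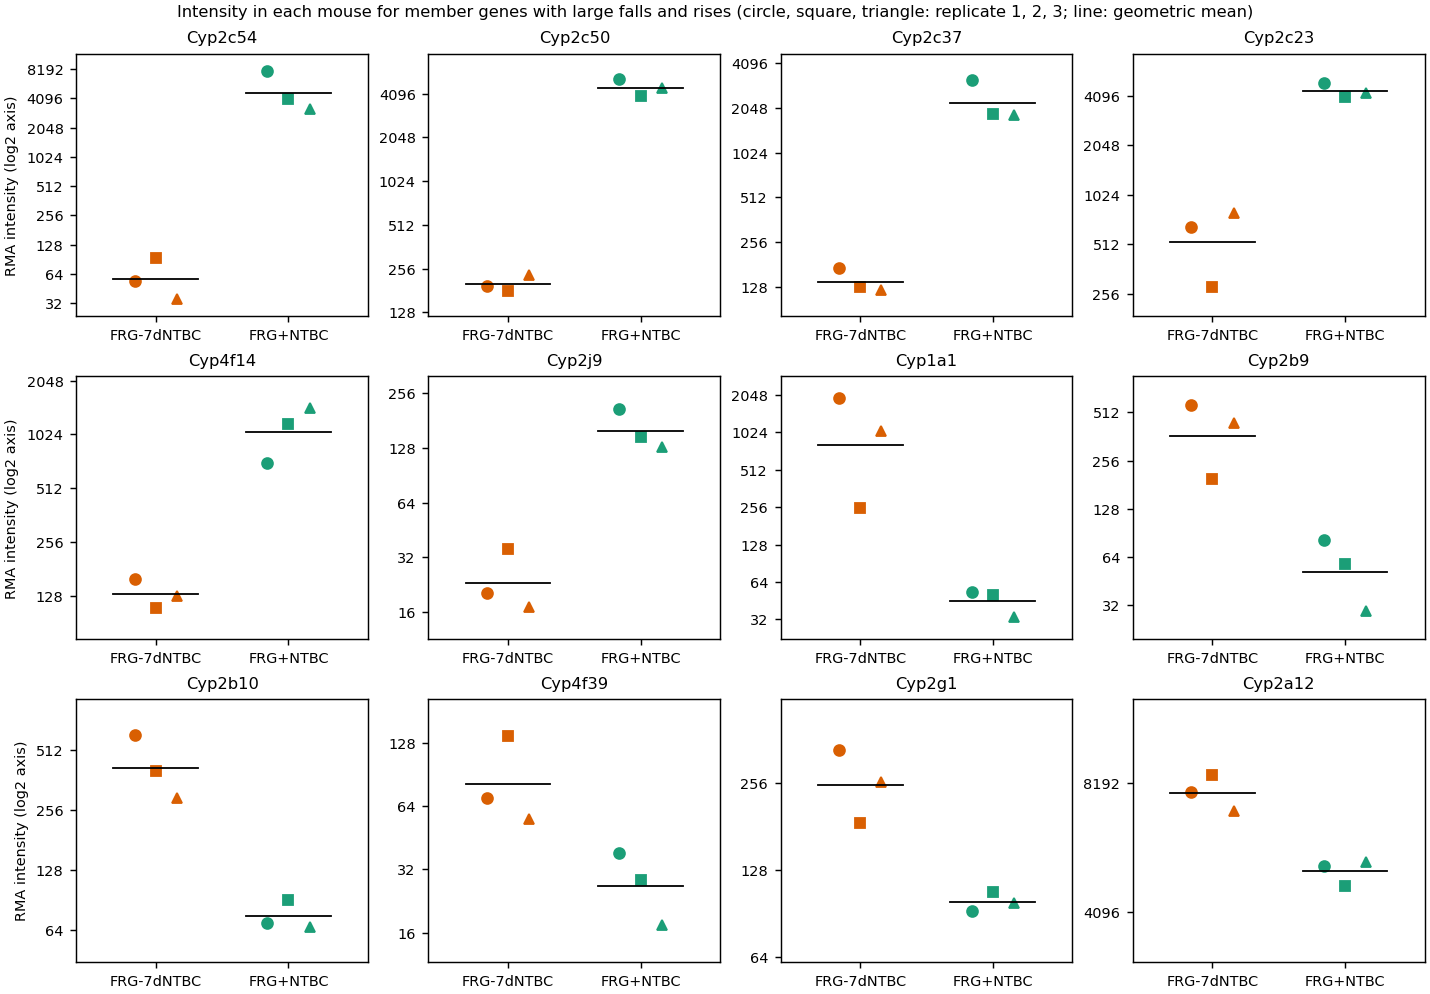
Intensity of 12 P450 genes in each mouse on log2 axes, with FRG-7dNTBC mice left and FRG+NTBC mice right in each panel, a symbol per replicate number and a line at the geometric mean of the 3 mice. The groups do not overlap in any panel, with Cyp2c54 at 35.3 to 93.7 in FRG-7dNTBC livers and 3214 to 7913 in FRG+NTBC livers, and Cyp1a1 at 254 to 1924 in FRG-7dNTBC livers and 33.4 to 53.5 in FRG+NTBC livers.

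Subfamily 2d, which oxidises many basic drugs, had 4 of 8 genes down regulated and none up regulated (all genes: 12.7% and 17.4%). Its median log2 difference was -0.71. The largest fall was in Cyp2d13, which RefSeq annotates as a transcribed pseudogene. It read 95.01, 60.97 and 77.7 in FRG-7dNTBC livers, against 809, 1136 and 917 in FRG+NTBC livers, a difference of -3.62 (SE 0.20, 12.3-fold, adjusted p = 3.31e-05 from limma). The second Cyp2d13 probe set fell by 3.25. Cyp2d9, the testosterone 16 alpha-hydroxylase of male mouse liver, fell to 6427, 5873 and 5595 in FRG-7dNTBC livers, against 10885, 10086 and 9410.1 in FRG+NTBC livers. The mice of each group lay close together, and the fall was 1.70-fold (SE 0.12 on the log2 scale, adjusted p = 0.00298 from limma). Cyp2d10 read 8135, 9542 and 8192 in FRG-7dNTBC livers and 13969.6, 13777 and 12766 in FRG+NTBC livers, a difference of -0.65 (SE 0.12, adjusted p = 0.00628 from limma). Cyp2d40 was weak throughout, at 19.4, 14.03 and 13.9 in FRG-7dNTBC livers and 22.6, 44.02 and 33.4 in FRG+NTBC livers (difference -1.04, adjusted p = 0.017 from limma), and lost its call without FRG+NTBC replicate 2 (adjusted p = 0.0574) or replicate 3 (adjusted p = 0.0566). Cyp2d22, the mouse relative nearest to human CYP2D6, was not called at its brightest probe set, with 719, 495 and 367 in FRG-7dNTBC livers and 1287, 760.1 and 749.6 in FRG+NTBC livers (adjusted p = 0.0675 from limma), whereas its other probe set was called, at a difference of -1.22. Cyp2d26 read 2896 to 4673 in FRG-7dNTBC livers, against 3641 to 4421 in FRG+NTBC livers, and was not called. Cyp2d34 lay at 24.9 to 29.9 in FRG-7dNTBC livers and 20.5 to 29.5 in FRG+NTBC livers, near the Rag2 level, and Cyp2d12 lay under it in both groups.

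Cyp2e1, which oxidises ethanol and acetaminophen and is made around the central vein, read 6472, 9216 and 3236 in FRG-7dNTBC livers, against 13125, 13308 and 12678 in FRG+NTBC livers. All FRG-7dNTBC mice lay below the FRG+NTBC mice but differed among themselves nearly 3-fold, and the difference was -1.17 (SE 0.33, 2.26-fold, adjusted p = 0.0323 from limma). This call was lost when any of the FRG+NTBC mice was left out (adjusted p = 0.081 to 0.0985) and without FRG-7dNTBC replicate 1 (adjusted p = 0.0715). Cyp2u1, a fatty acid hydroxylase, fell to 142, 144 and 105 in FRG-7dNTBC livers, against 197, 223 and 288 in FRG+NTBC livers (difference -0.85, SE 0.19, adjusted p = 0.0122 from limma). The second Cyp2u1 probe set was not called, and the Cyp2u1 call was lost on the mean over both probe sets (adjusted p = 0.079) and without moderation (adjusted p = 0.0827).

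In family 1, the AhR-responsive family, Cyp1a1 rose most of all 56 genes. Cyp1a1, which oxidises polycyclic aromatic hydrocarbons, had intensities of 1924, 254 and 1060.1 in FRG-7dNTBC livers and 53.5, 49.9 and 33.4 in FRG+NTBC livers. Every FRG-7dNTBC mouse was above every FRG+NTBC mouse, but replicate 2 was far below the other 2 FRG-7dNTBC mice. The 18.00-fold rise (log2 difference 4.17, SE 0.64, adjusted p = 0.00223 from limma) was 32-fold without FRG-7dNTBC replicate 2 and 11.6-fold without FRG-7dNTBC replicate 1, and was not called without moderation of the variances (adjusted p = 0.0578). Cyp1a2, the constitutive liver member, which metabolises caffeine, read 9675, 4939 and 8841 in FRG-7dNTBC livers, against 5442, 4124 and 4738 in FRG+NTBC livers. The groups overlapped through FRG-7dNTBC replicate 2, and the gene was not called (difference 0.66, SE 0.25, adjusted p = 0.0899 from limma). Cyp1b1, an enzyme of tissues other than liver, stood near the Rag2 level, with 21.1, 19.4 and 27.3 in FRG-7dNTBC livers and 23.6, 21.7 and 25.5 in FRG+NTBC livers.

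Subfamily 2b had 2 of 4 genes up regulated and none down regulated (all genes: 17.4% and 12.7%). Its median log2 difference was 1.23. Cyp2b10, the classic CAR target of mouse liver, read 613, 404 and 294 in FRG-7dNTBC livers, against 70.03, 91.1 and 66.7 in FRG+NTBC livers. The groups were well apart, and the 5.55-fold rise (log2 difference 2.47, SE 0.26, adjusted p = 0.000444 from limma) was called at all 3 of its probe sets, whose differences were 1.08 to 2.47. Cyp2b9, a female-biased gene of adult mouse liver, read 572, 197 and 437 in FRG-7dNTBC livers and 81.6, 58.1 and 29.4 in FRG+NTBC livers, a 7.06-fold rise (log2 difference 2.82, SE 0.46, adjusted p = 0.00298 from limma). Without moderation of the variances this call was lost (adjusted p = 0.0635). Cyp2b13, also female-biased and with nearly the same promoter window, read 31.8, 37.3 and 30.7 in FRG-7dNTBC livers and 31.1, 38.9 and 30.5 in FRG+NTBC livers (difference -0.01, SE 0.15, adjusted p = 0.979 from limma). The Cyp2b13 values lay near the median intensity of the arrays (33.1 to 36.5), and the filter on dim probe sets removed them. Whether Cyp2b13 is made in these livers, and whether the Cyp2b9 and Cyp2b13 probe sets each see only their own gene, was not tested. Cyp2b19, known from skin, lay under the Rag2 level in both groups.

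On chromosome 7, beside these genes, Cyp2g1 and Cyp2a12 rose. Cyp2g1, known from the olfactory mucosa, read 333, 186 and 259.6 in FRG-7dNTBC livers, against 92.4, 108 and 98.4 in FRG+NTBC livers, a 2.54-fold rise (SE 0.21 on the log2 scale, adjusted p = 0.00234 from limma). Cyp2a12, which hydroxylates testosterone and secondary bile acids, read 7804, 8539.9 and 7033 in FRG-7dNTBC livers and 5257, 4705 and 5367 in FRG+NTBC livers, and rose 1.52-fold (SE 0.13 on the log2 scale, adjusted p = 0.0103 from limma). In both genes the lowest FRG-7dNTBC value was above the highest FRG+NTBC value. Cyp2f2, which activates naphthalene and is made around the portal vein, had 12678, 11268 and 10297 in FRG-7dNTBC livers and 11347, 10297 and 12678 in FRG+NTBC livers. The ranges were the same, and the difference was 0.00 with an SE of 0.14 (adjusted p = 0.988 from limma).

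Subfamily 3a is the main drug-oxidising subfamily and the best known set of PXR targets. It had 2 of 5 genes up regulated and none down regulated (all genes: 17.4% and 12.7%). Its median log2 difference was 0.36. Cyp3a11, the most studied mouse member, read 16728, 14972 and 19619 in FRG-7dNTBC livers and 20171, 20032 and 19619 in FRG+NTBC livers. It was not called (difference -0.23, SE 0.14, adjusted p = 0.249 from limma) and its groups overlapped through FRG-7dNTBC replicate 3. Cyp3a13 rose to 1296, 1820.3 and 1499 in FRG-7dNTBC livers, against 976, 898 and 1060.1 in FRG+NTBC livers (difference 0.64, SE 0.16, adjusted p = 0.0176 from limma). The Cyp3a13 call was lost without FRG+NTBC replicate 1 (adjusted p = 0.0501) or replicate 2 (adjusted p = 0.0725) and without moderation (adjusted p = 0.0753). Cyp3a25 read 12246, 11747 and 12766 in FRG-7dNTBC livers and 10226, 9742 and 8780 in FRG+NTBC livers. Its groups did not overlap, but it missed the threshold (difference 0.36, SE 0.12, adjusted p = 0.0612 from limma). Cyp3a16 was called at 8.22, 9.32 and 6.68 in FRG-7dNTBC livers and 4.96, 5.39 and 4.96 in FRG+NTBC livers, all far below the Rag2 level, and lost its call without FRG-7dNTBC replicate 1 (adjusted p = 0.0542), with log2(value + 16) (0.0697) and without moderation (0.0635). Cyp3a44 was not called, with 12.5 to 28.6 in FRG-7dNTBC livers and 23.3 to 26.2 in FRG+NTBC livers.

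Subfamily 4a, which hydroxylates fatty acids and holds well-known PPAR alpha targets, had none of its 3 genes called. Cyp4a14 read 709, 2998 and 676 in FRG-7dNTBC livers, against 2091, 3126 and 2876 in FRG+NTBC livers. The values of replicates 1 and 3 were below the whole FRG+NTBC range and that of replicate 2 lay within it (difference -1.24, SE 0.52, adjusted p = 0.12 from limma). Cyp4a12a, the male-biased enzyme that makes 20-HETE, read 2320.2, 3281 and 1342 in FRG-7dNTBC livers and 4182, 2165 and 2702 in FRG+NTBC livers, with overlapping groups (difference -0.42, SE 0.35). Cyp4a31 had 365, 657 and 377 in FRG-7dNTBC livers and 239, 349.7 and 290 in FRG+NTBC livers at its brightest probe set (difference 0.63, adjusted p = 0.0975 from limma). At its other, dimmer probe set it read 77.7, 161 and 60.5 in FRG-7dNTBC livers and 13.8, 14.03 and 21.9 in FRG+NTBC livers, a rise of 2.49 that was called (adjusted p = 0.00154 from limma), so the gene's result depends on the probe set.

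Subfamily 4f split, with 3 of 7 genes up regulated and 3 down regulated (all genes: 17.4% and 12.7%). Cyp4f14, which inactivates leukotriene B4 and starts vitamin E breakdown, fell to 159.8, 111 and 128 in FRG-7dNTBC livers, against 709, 1176 and 1438 in FRG+NTBC livers (difference -3.02, SE 0.26, 8.09-fold, adjusted p = 0.000199 from limma). Cyp4f15 fell to 744, 545 and 505 in FRG-7dNTBC livers, against 2006, 2778 and 2469 in FRG+NTBC livers (difference -2.02, SE 0.19, adjusted p = 0.000267 from limma). Cyp4f13 fell to 198, 179 and 139 in FRG-7dNTBC livers, against 508, 498 and 474 in FRG+NTBC livers (difference -1.54, SE 0.15, adjusted p = 0.000357 from limma). For all 3 the groups were clearly separate. Cyp4f39, a skin enzyme that hydroxylates very long fatty acids for the barrier, rose to 70.03, 138 and 55.7 in FRG-7dNTBC livers, against 38.3, 28.6 and 17.4 in FRG+NTBC livers (difference 1.61, SE 0.38, 3.05-fold, adjusted p = 0.0157 from limma). Its call was lost without FRG+NTBC replicate 2 (adjusted p = 0.0517) or replicate 3 (adjusted p = 0.0527). Cyp4f16 rose to 113, 88.03 and 109.9 in FRG-7dNTBC livers, against 52.7, 74.03 and 63.6 in FRG+NTBC livers (difference 0.71, SE 0.17, adjusted p = 0.0157 from limma), and by 1.34 at its other probe set. Its call was lost without FRG-7dNTBC replicate 1 (adjusted p = 0.0636) and without moderation (adjusted p = 0.0803). Cyp4f18, a neutrophil enzyme, was called at intensities of 15.9 to 18.0 in FRG-7dNTBC livers and 11.0 to 13.8 in FRG+NTBC livers, below the Rag2 level. This call was lost when any mouse but FRG+NTBC replicate 3 was left out (adjusted p = 0.0522 to 0.0985), with 75th percentile scaling (0.0643), on the mean over probe sets (0.229) and without moderation (0.0676). The pseudogene Cyp4f41-ps was lower still and not called.

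Elsewhere in family 4, Cyp4v3, the relative of a human enzyme whose loss causes a crystalline retinal disease, fell 3.33-fold. It read 1911, 1296 and 1698 in FRG-7dNTBC livers, against 4738, 5518 and 5955 in FRG+NTBC livers (difference -1.74, SE 0.17, adjusted p = 0.000356 from limma). The second Cyp4v3 probe set fell as well. Cyp4b1, best known from lung, read 184, 171 and 156 in FRG-7dNTBC livers and 135, 78.8 and 236 in FRG+NTBC livers, with the wider spread in the FRG+NTBC mice, and was not called (difference 0.32, SE 0.34). Cyp4x1, known from brain, was at the bottom of the scale, with 12.7, 13.6 and 10.8 in FRG-7dNTBC livers and 13.8, 11.6 and 12.1 in FRG+NTBC livers.

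Subfamily 2j, which makes epoxides of arachidonic acid, had 2 of 5 genes down regulated and 1 up regulated (all genes: 12.7% and 17.4%). Cyp2j5, its member of liver and kidney, read 1024, 1024 and 849 in FRG-7dNTBC livers and 2106, 2195 and 2521 in FRG+NTBC livers, a 2.36-fold fall (SE 0.14 on the log2 scale, adjusted p = 0.000549 from limma). The size depended on the probe set, since the other one read 84.5, 50.6 and 54.2 in FRG-7dNTBC livers and 1168, 1563 and 1618 in FRG+NTBC livers, a 23.4-fold fall. Cyp2j9, known from brain, fell to 20.4, 35.5 and 17.1 in FRG-7dNTBC livers, against 209, 147 and 129 in FRG+NTBC livers (difference -2.77, SE 0.29, 6.84-fold, adjusted p = 0.000421 from limma), and so reached the Rag2 level in 2 of the 3 FRG-7dNTBC mice. Cyp2j6, known from intestine, rose to 461, 428 and 439.6 in FRG-7dNTBC livers, against 272, 280.1 and 224 in FRG+NTBC livers (difference 0.78, SE 0.13, adjusted p = 0.00356 from limma). Its dimmer probe set was not called, and neither was the mean over both (adjusted p = 0.352). Cyp2j11 (difference 0.10) and Cyp2j13 (difference -0.29, below the Rag2 level) were not called.

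The last members of family 2 were Cyp2r1, the vitamin D 25-hydroxylase, and Cyp2s1, an AhR-responsive gene of epithelia. Cyp2r1 read 95.01, 120.3 and 85.04 in FRG-7dNTBC livers and 88.7, 141 and 162 in FRG+NTBC livers (difference -0.35, SE 0.24). Cyp2s1 read 62.7, 42.2 and 75.6 in FRG-7dNTBC livers and 47.5, 50.6 and 42.2 in FRG+NTBC livers (difference 0.33, SE 0.21). The groups of both genes overlapped and neither was called. In all, 8 of the 56 genes had a mean under the highest Rag2 value in both groups, and 2 in 1 group only. Of 11 genes with several probe sets, 6 had the same call at each, and the calls differed for Cyp2d22, Cyp2j6, Cyp2u1, Cyp4a31 and Cyp4f18.

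Genes that lie side by side did not always move together. In the order of the measured genes along chromosome 19, Cyp2c37, Cyp2c54 and Cyp2c50 followed each other with log2 differences of -3.97, -6.37 and -4.48, then Cyp2c70 with -1.32 and, farther on, Cyp2c23 with -3.06. The genes before this run, from Cyp2c55 to Cyp2c68, had differences between -1.24 and 1.19, and of these Cyp2c29 alone was called. On chromosome 17, the up regulated Cyp4f39 and Cyp4f16 came before the down regulated Cyp4f15, Cyp4f14 and Cyp4f13. On chromosome 4 the up regulated Cyp2j6 was next to the down regulated Cyp2j9 and Cyp2j5. On chromosome 7 the up regulated Cyp2b10 and Cyp2b9 had Cyp2b13 between them, which was not called. On chromosome 5, 2 of 5 genes were up regulated and none down regulated, and Cyp3a16, among those 2, lay below the Rag2 level. Chromosome 7 held 10 genes, with 4 up regulated and 1 down regulated. Chromosomes 15 and 19 held 4 of 8 and 6 of 11 genes down regulated, and no up regulated one. The shares of all genes were 17.4% up regulated and 12.7% down regulated.

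**Figure D3:**
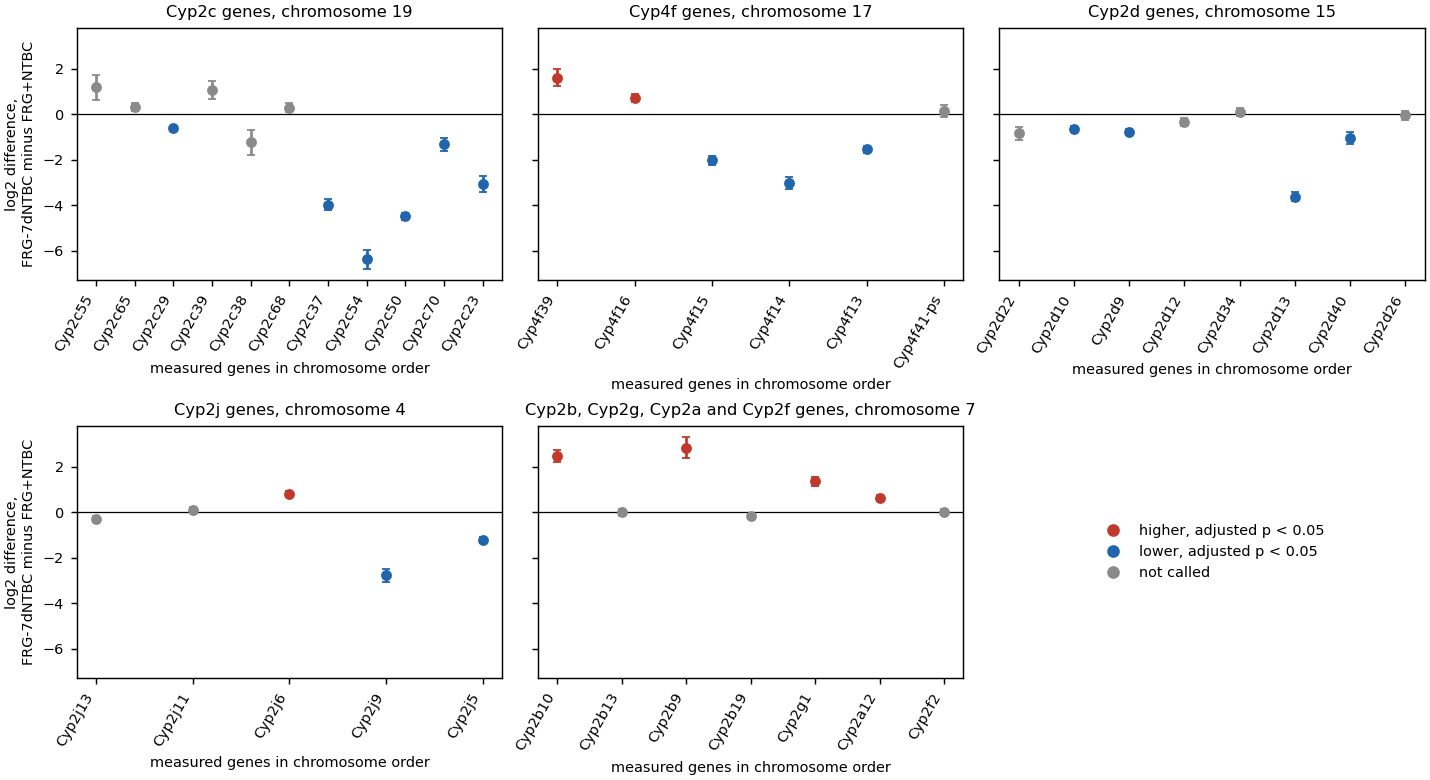
Log2 difference (FRG-7dNTBC minus FRG+NTBC, points, with bars of 1 SE from limma) of the measured genes in their order along the chromosome, with 1 panel for each cluster. The Cyp2c genes from Cyp2c37 to Cyp2c50 lie at -3.97 to -6.37, and the Cyp4f cluster runs from 1.61 at Cyp4f39 to -3.02 at Cyp4f14.

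Grouped by known regulator or by place in the liver, the genes changed only in part or in both directions. Of all genes, 17.4% were up regulated and 12.7% down regulated, and the groups were chosen with earlier results of these data known. Of 11 measured genes known as CAR or PXR targets, Cyp2b10, Cyp2b9 and Cyp3a13 rose, Cyp2c29, Cyp2c37, Cyp2c50 and Cyp2c54 fell, and 4 were not called. Of 3 AhR targets of family 1, Cyp1a1 rose and the other 2 were not called, and neither of 2 measured PPAR alpha targets was called. The AhR-responsive Cyp2s1, which is outside this group, was not called either. Of 7 genes made around the central vein, 5 fell (Cyp2c29, Cyp2c37, Cyp2c50, Cyp2c54 and Cyp2e1) and none rose, with a median log2 difference of -1.17. Cyp1a2 (0.66) and Cyp3a11 (-0.23) were not called, and neither was Cyp2f2, the gene of the portal side. The fallen Cyp2c genes are relatives that may share probes, and the Cyp2e1 call was lost without some of the mice. Of 4 male-biased genes, Cyp2d9 and Cyp2u1 fell, and Cyp4a12a and Cyp2f2 were not called. Of 5 female-biased genes, Cyp2b9 rose, as did Cyp3a16 at the bottom of the scale. Cyp2b13 (-0.01), Cyp3a44 (-0.26) and Cyp4a14 (-1.24) were not called, and the median log2 difference of the female-biased genes was -0.01. Cyp4a14 was down regulated when FRG-7dNTBC replicate 2 was left out.

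Among FRG-7dNTBC mice, replicate 2 was most often the one farthest from the middle value of its group. This held at 26 of the 56 genes (46.4%), and at 38.6% of all genes, whereas replicates 1 and 3 were farthest at 13 and 17 genes. The FRG+NTBC mice were uneven too. There, replicate 1 was farthest at 23 of the 56 genes (41.1%) and at 43.3% of all genes. Replicate 3 was farthest at 22 of the 56 genes (39.3%) and at 30.6% of all genes. Cyp2c38 read 98.4, 399 and 76.1 in FRG-7dNTBC livers, against 419, 340.1 and 274 in FRG+NTBC livers. Cyp2c55, which rises in liver with CAR or PXR activators, read 1243, 242 and 1017 in FRG-7dNTBC livers, against 265, 249 and 393 in FRG+NTBC livers. At both genes replicate 2 lay within the FRG+NTBC range or at its edge and replicates 1 and 3 lay outside it, below for Cyp2c38 and above for Cyp2c55. Cyp2c39, which hydroxylates retinoic acid, read 67.2, 181 and 58.9 in FRG-7dNTBC livers and 48.2, 41.9 and 37.8 in FRG+NTBC livers, with replicate 2 the highest. None of the 3 was called with all mice (adjusted p = 0.135, 0.153 and 0.072 from limma).

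Without FRG-7dNTBC replicate 2, the calls were 14 higher and 21 lower of the 56 genes, in place of 11 and 18. Newly called were Cyp4a14 (log2 difference -1.94, adjusted p = 0.000417 from limma), Cyp2c38 (-1.97, 0.000551), Cyp2c55 (1.93, 0.000757), Cyp1a2 (0.97, 0.00422), Cyp2c39 (0.57, 0.0371), Cyp2s1 (0.56, 0.0364) and Cyp2d12 (-0.52, 0.0408), and Cyp4f18 was lost. Replicate 2 is described here because it lay far from the other FRG-7dNTBC mice at several of these same genes. Leaving it out narrowed their spread, so these new calls add no separate support. Summed markers of 7 of 8 cell types were lowest in replicate 2 among the FRG-7dNTBC mice. Stellate cell markers summed to 638 in replicate 2, against 2732 and 2860 in the other FRG-7dNTBC mice and 1153 to 1424 in FRG+NTBC livers, and macrophage markers to 1894, against 3340.3 and 4590 in the other FRG-7dNTBC mice and 1582 to 2184 in FRG+NTBC livers. Their part in the P450 spread was not tested.

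**Figure D4:**
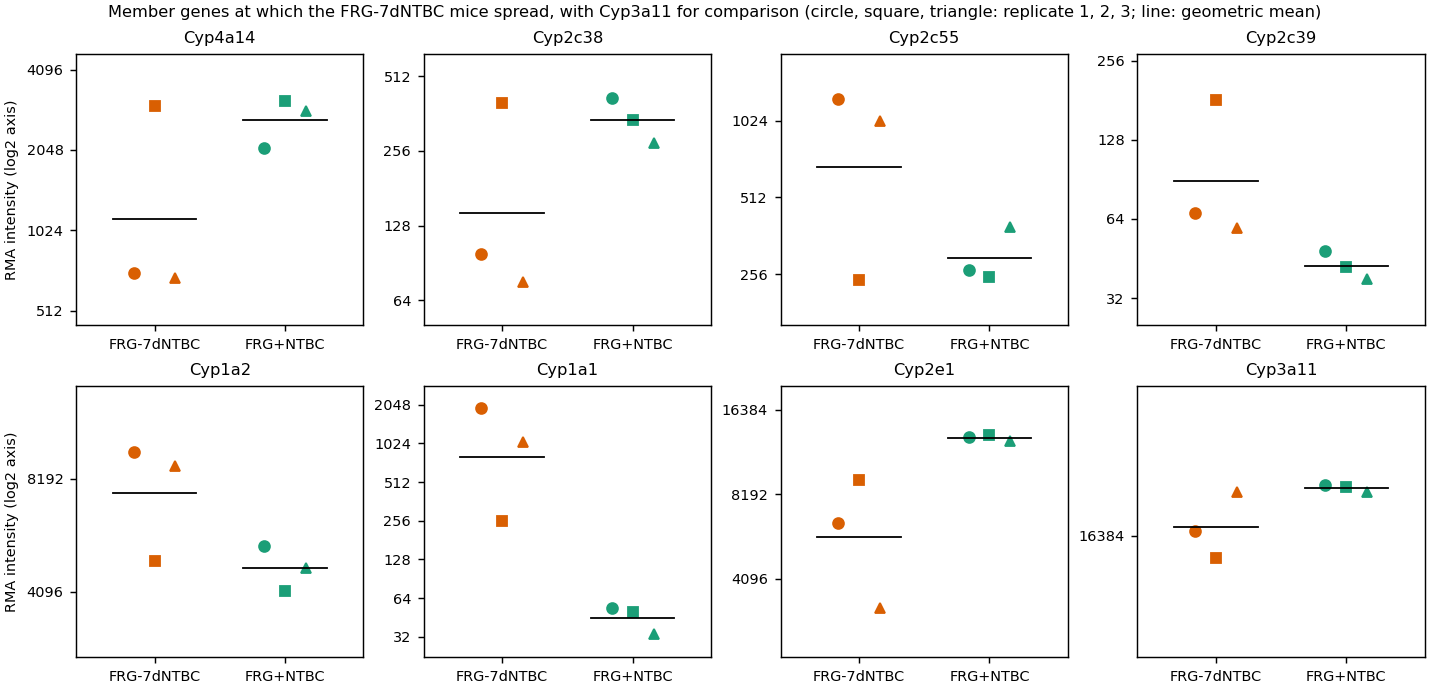
Intensity in each mouse on log2 axes for 7 genes at which the FRG-7dNTBC mice spread, and for Cyp3a11, with FRG-7dNTBC mice left, FRG+NTBC mice right and a line at the geometric mean. FRG-7dNTBC replicate 2 (square) reads 2998 for Cyp4a14 and 399 for Cyp2c38, close to the FRG+NTBC mice, whereas the other 2 FRG-7dNTBC mice read 676 to 709 and 76.1 to 98.4.

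The RNA of genes whose proteins serve the P450 enzymes changed in both directions. Of 7 measured electron partners and epoxide hydrolases, 3 rose and 2 fell, against 17.4% and 12.7% of all genes. This list and those that follow were chosen with earlier results of these data known. Ephx1, the microsomal hydrolase that opens P450-made epoxides, read 12590.1, 13034 and 9947 in FRG-7dNTBC livers, against 5113, 4576 and 5518 in FRG+NTBC livers (difference 1.22, SE 0.15, adjusted p = 0.000822 from limma). Fdx1, the ferredoxin of mitochondrial P450 enzymes, rose by 0.88 and Cyb5a, the cytochrome b5 of the endoplasmic reticulum, by 0.48, whereas the reductase Cyb5r3 fell by 0.87 and the mitochondrial cytochrome b5 Cyb5b by 0.79. P450 oxidoreductase itself was not analysed here, since no probe set names it alone.

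Of 11 genes of heme supply and breakdown, 4 rose and 2 fell, against 17.4% and 12.7% of all genes. Alas1, the first and rate-limiting enzyme of heme synthesis in liver, read 5480.1, 3848 and 2557 in FRG-7dNTBC livers, against 1438, 617 and 313 in FRG+NTBC livers, without overlap (difference 2.53, SE 0.51, adjusted p = 0.00803 from limma). Further along the pathway, Uros rose by 0.55, and Cpox fell by 1.21 and Ppox by 0.82. Hmox1, which degrades heme, read 3327, 2798 and 955 in FRG-7dNTBC livers and 34.8, 52.4 and 75.6 in FRG+NTBC livers (difference 5.33, SE 0.47, adjusted p = 0.000208 from limma), and Blvrb, which reduces biliverdin, rose by 2.10.

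Of 28 measured regulators of P450 genes, 16 were down regulated, against 12.7% of all genes, with a median log2 difference of -0.73. Only Nfe2l2, the gene of NRF2, was up regulated (difference 1.66), against 17.4% of all genes. Ppara, the gene of PPAR alpha, read 580, 744 and 413 in FRG-7dNTBC livers, against 2149.8, 3468 and 2856 in FRG+NTBC livers (difference -2.30, SE 0.25, adjusted p = 0.000484 from limma). Rxra, the shared partner of CAR, PXR and PPAR alpha, fell by 2.02, and Nr1i2, the gene of PXR, fell by 0.65. Nr1i3, the gene of CAR, read 256, 461 and 119 in FRG-7dNTBC livers and 512, 530.1 and 530.1 in FRG+NTBC livers, lower in all 3 FRG-7dNTBC mice but not called (adjusted p = 0.0809 from limma). Ahr read 873, 526 and 1287 in FRG-7dNTBC livers and 523, 689.8 and 803 in FRG+NTBC livers and was not called (adjusted p = 0.456 from limma). The D-box factors Dbp, Hlf and Tef fell by 4.59, 1.90 and 1.69. Bcl6, a repressor that takes part in the sex bias of liver genes, fell by 3.52, and Stat5b, which carries the growth hormone signal, by 0.74. Of the liver-enriched factors, Cebpa fell by 1.07, Onecut1 by 1.08, Foxa3 by 0.78 and Hnf4a by 0.50. The nuclear receptors Nr0b2, Esr1, Nr1h4 and Nr3c1 fell by 0.72 to 1.13.

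**Figure D5:**
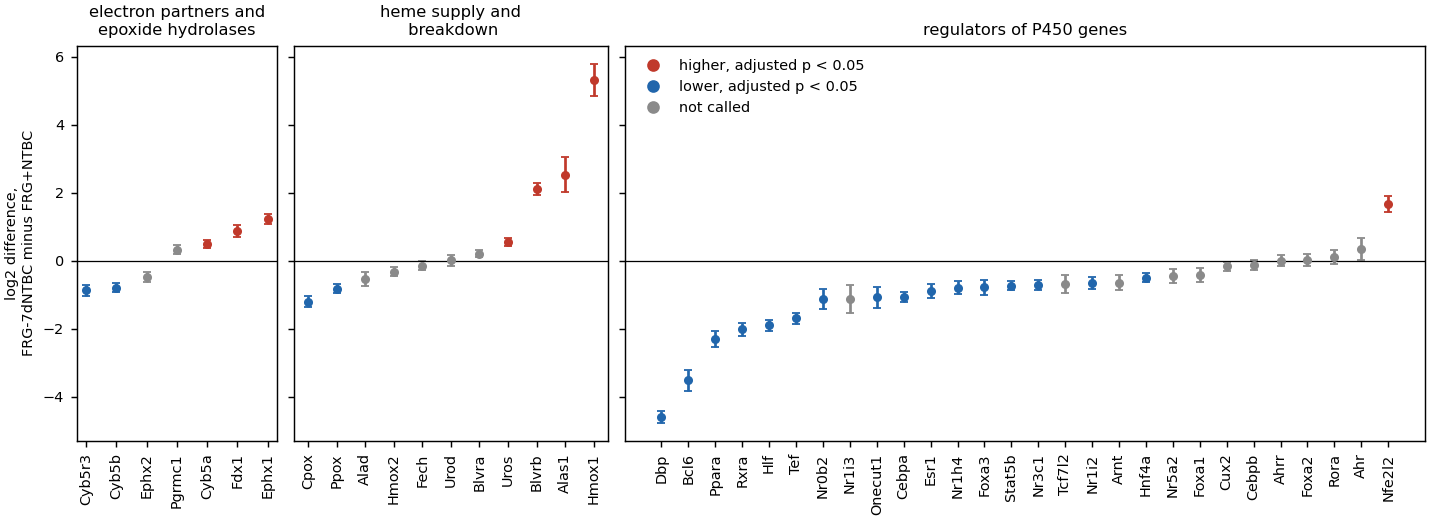
Log2 difference (FRG-7dNTBC minus FRG+NTBC, points, with bars of 1 SE from limma) of the electron partners and epoxide hydrolases, the genes of heme supply and breakdown, and the regulators of P450 genes. Of the 28 regulators 16 are down regulated (against 12.7% of all genes), to -4.59 for Dbp, while Hmox1 (5.33) and Alas1 (2.53) rise.

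Targets of the same receptors outside the P450 families were more often up than down regulated, where 17.4% of all genes were up and 12.7% down regulated. Of 13 CAR and PXR targets 10 rose, among them the exporters Abcb1a (2.72) and Abcc2 (1.86) and the transferase Gstm3 (2.22), and the anion carrier Slco1a4 fell by 1.94. Several of these, such as Gstm3, are also known targets of NRF2. Of 4 AhR targets, Tiparp rose by 1.43 and Nqo1, an NRF2 target as well, by 3.63, and none fell. Of 12 PPAR alpha targets 7 rose, with Pdk4 (4.45), Fgf21 (2.75) and Ehhadh (2.09) leading, and the fatty acid carrier Fabp1 (-0.82) and the thiolase Acaa1b fell.

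The 17 measured P450 genes of other families, which mostly handle sterols, bile acids, retinoids and vitamin D, had 4 up regulated and 5 down regulated genes and a median log2 difference of -0.12. The shares of all genes were 17.4% up regulated and 12.7% down regulated. Cyp7a1, the rate-limiting enzyme of bile acid synthesis, read 118, 165 and 100.4 in FRG-7dNTBC livers, against 2241, 2179.8 and 3350.1 in FRG+NTBC livers, and Cyp8b1, which sets the share of cholic acid, fell by 1.13. Retinoic acid is cleared by Cyp26a1, which fell by 1.56, and Cyp26b1, which rose by 1.45. Cyp27a1 of the side-chain route read 820.3, 1898 and 609 in FRG-7dNTBC livers and 1783, 2241 and 2288 in FRG+NTBC livers and was not called (adjusted p = 0.0628 from limma), again with replicate 2 within the FRG+NTBC range.

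Across the alternative settings, 3 up regulated genes (Cyp2a12, Cyp2b10 and Cyp2g1) and 12 down regulated genes (Cyp2c29, Cyp2c37, Cyp2c50, Cyp2c54, Cyp2d10, Cyp2d13, Cyp2j5, Cyp2j9, Cyp4f13, Cyp4f14, Cyp4f15 and Cyp4v3) were called at an adjusted p under 0.05 in every alternative fit run. Cyp2c23 and Cyp2d9 were likewise down regulated in every fit that held their only probe set. Under the rule that also asks for a 2-fold change, Cyp2a12, Cyp2c29, Cyp2d9 and Cyp2d10 were not called. Taken alone, a gene with 3 mice against 3 cannot go below p = 0.1 in an exact permutation test. The calls therefore rest on the assumptions of the fitted model. Without moderation, where each gene kept its own variance, 4 genes were still called higher and 14 lower. The 11 calls lost there rest on limma's sharing of the variance across all probe sets.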

How the data were processed

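Liver RNA of 3 FRG-7dNTBC and 3 FRG+NTBC mice, separate animals, was measured on Affymetrix Mouse 430 arrays. The authors deposited linear intensity values from Robust Multiarray Analysis, that is, background correction, then quantile normalization between arrays, then median polish over probes (Transcriptome Analysis Console, per the submitters' processing notes). Values were turned into log2 before any test. Of 45037 probe sets, 34945 have a single gene symbol in the array annotation and could be named, 932 have several and 9160 none, and each of 18193 genes was read at its brightest probe set.

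Groups were compared with lmFit and eBayes of limma 3.58.1 (R 4.3.3) without covariates, with Benjamini-Hochberg adjustment of p-values across the whole array, with a threshold of 0.05. The fit was tried on simulated data with independent probe sets, of which far fewer changed than on these arrays. That trial checks the working of the code only. Precision is limited by 3 arrays per group. Every array's value is given for the 10 largest rises and 10 largest falls among called members, for the brightest member of each subfamily and for a fixed list of well-known P450 genes. Values of Cyp2b13, Cyp2c38, Cyp2c39, Cyp2c55, Cyp2c70, Cyp2d22, Cyp2d40, Cyp3a25, Cyp4a31 and Cyp27a1 were added after they were seen. The members and gene lists were chosen with earlier results of these data known. Promoter windows are RefSeq's (GRCm38.p6, 250 bases before the start), and no other coordinates are given, since the array annotation names no build.

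The comparison was repeated with scaling to a common 75th percentile, with a second quantile normalization, with a filter on dim probe sets, with robust and intensity-dependent moderation, without moderation, with array weights, without probe sets of the s, x and a kinds (which may match several transcripts), on the mean over a gene's probe sets, on log2(value + 16), with a 2-fold rule, with the replicate number as a block, and without each mouse.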

Additional observations from a re-analysis of the deposited data

How the results depend on the processing

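No called P450 gene changed direction under any alternative. In the fits other than that without moderation, 0 to 5 P450 genes lost their call and 0 to 7 gained one. Without moderation 11 lost it (Cyp1a1, Cyp2b9, Cyp2c70, Cyp2d40, Cyp2e1, Cyp2u1, Cyp3a13, Cyp3a16, Cyp4f16, Cyp4f18 and Cyp4f39, adjusted p = 0.0578 to 0.159). Scaling to a common 75th percentile moved the median log2 difference of all probe sets by -0.13 and the share of higher calls to 35.7%, against 50.1% (P450 genes 34.5%, against 37.9%), with 9669 probe sets lower in place of 6262 and subfamily medians of -0.84 (2d), -0.42 (2j) and 0.23 (3a), against -0.71, -0.29 and 0.36. Without dim probe sets, which left 42 of the P450 genes, the medians of 2b, 2j and 4f were 2.65, -1.24 and -1.54, so that of 4f turned from 0.16. Without moderation, 4 P450 genes were higher and 14 lower, 13 partners and regulators were lower in place of 20, and 3141 probe sets were higher and 3336 lower. The 2-fold rule left 5 P450 genes higher and 14 lower, so that 10 lost their call. Cyp2d40 and Cyp2e1 also lost it with log2(value + 16) (adjusted p = 0.0501 and 0.0706). The 2d median was -0.58 with array weights, the 2b median was 0.54 without s, x and a probe sets and 0.98 on the mean over probe sets, which left 3699 genes higher, and the 2j and 3a medians were -0.11 and 0.19 with log2(value + 16). Without s, x and a probe sets, Cyp1a1, Cyp2c23 and Cyp2d9 could not be tested. Leaving out each mouse gave 8 to 14 P450 genes higher and 16 to 21 lower, 3864 to 6400 probe sets lower, and medians of -1.23 to -0.78 (2c), 0.30 to 0.41 (3a) and -0.17 to 0.33 (4f). With the replicate block, 13 P450 genes were higher and 19 lower, with Cyp1a2, Cyp2d22 and Cyp4a31 gained. Mice of the same number correlated at 0.11, 0.03 and -0.16 in their deviations, so the numbers were not taken as pairs. With 3 mice per group, a missed threshold does not show that a gene did not differ.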
